A study of Cynodon dactylon with 10 samples.

Results

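Leaves of bermudagrass (Cynodon dactylon) that had been under water for 7 days were compared directly with leaves of plants that had received no water for 7 days. The comparison covers 23840 of 28456 assembled contigs, or 83.8%, chosen because they had at least 1 RPKM in both libraries of unstressed control leaves. RPKM counts the reads of a contig relative to its length and to the size of the library. The choice used the control libraries alone, so it drew on neither stress. It does leave out contigs that were low in the control and high under a stress. Contigs carry assembly identifiers that the files do not pair with gene names, so no gene list, leaf marker or pathway could be checked, and the tissue label rests on the labels alone.

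Bermudagrass is a perennial turf and forage grass of warm climates. In flooded plants gas exchange is slowed by the water layer, tissues become short of oxygen, the gas ethylene builds up, and cells shift from respiration towards fermentation, while shading by the water limits photosynthesis. In plants without water the hormone abscisic acid accumulates, stomata close, and leaves make protective proteins and compatible solutes. Both stresses limit carbon gain by leaves, and the present comparison sets too much water against too little.

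Wild-type seedlings were stressed at 3 weeks of age, and leaf RNA was sequenced after 7 days in 2 libraries for each of 5 groups. The groups were an unstressed control, drought (water withheld), submergence (plants placed under water), salt (400 mM NaCl) and heat (42 °C). Whether the paired libraries of each group stem from different plants is not stated, so the p-values capture the spread of these libraries only, and that spread may be technical. Light, water depth and temperature for the submerged plants are not stated.

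Library totals ran from 751923 to 795078 RPKM, and the numbers of reads are unknown. Steps between low values put depth relative to control replicate 1 at 1.01 and 0.891 in the submergence libraries and at 0.949 and 0.921 in the drought libraries. The chosen contigs held 99.9% of the RPKM in control leaves, 99.5% under drought and 92.3% ± 0.0707 under submergence (SD, n = 2). The rest of the submergence signal lay in contigs below 1 RPKM in at least 1 control library. RPKM is a share of each library, so libraries were brought to one scale by a trimmed mean of log ratios before testing.

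Over the chosen contigs, a submergence library and a drought library differed by a root mean square of 1.23 to 1.25 on the log2(RPKM + 1) scale. The 2 libraries of a group differed by 0.184 to 0.213. Between group means the distance was 1.23 for submergence and drought, 1.18 for submergence and control, and 0.843 for drought and control. Submerged leaves thus lay about as far from droughted leaves as from unstressed leaves.

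At 2-fold, more of these contigs were lower than higher in submerged leaves relative to droughted leaves. The margin depended on the scaling, and the direction on the choice of contigs. With limma and an adjusted p under 0.05, 2642 contigs (11.1%) were at least 2-fold higher under submergence and 4115 (17.3%) at least 2-fold lower. Among all 26884 contigs tested, 17.9% were higher and 15.7% lower by the same rule, the opposite balance. Of the 3044 tested contigs outside the choice, 71.0% were higher and 3.58% lower. A fold here is on the log2(RPKM + 1) scale and understates differences of low contigs. Of the 2-fold calls, 39.1% were higher, and without scaling 49.5% were, with 3409 higher and 3477 lower. The size of the excess of lower contigs at 2-fold therefore depended on the scaling. Scaling moved the median log2 difference of all contigs tested from 0.23 without it to 0.07.

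Among the chosen contigs, lower contigs outnumbered higher ones by a larger factor at 8-fold than at 2-fold, though by fewer contigs. At 8-fold, 227 of the chosen contigs (0.952%) were higher under submergence and 570 (2.39%) lower, against 4.53% and 2.19% of all contigs tested. Without scaling the 8-fold counts were 272 and 500.

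Without a limit on size, 18122 of the chosen contigs were called, 8588 higher and 9534 lower, or 36.0% and 40.0%. Of all contigs tested, 40.8% were called higher and 36.2% lower. The direction of this balance turned with the scaling: without it 10581 of the chosen contigs were called higher and 7964 lower, and the split was 9154 to 9070 with upper-quartile scaling. Higher contigs were 47.4% of the calls, 57.1% without scaling and 50.2% with upper-quartile scaling. Both scaled submergence libraries lay above both drought libraries in 10089 of the chosen contigs and below both in 10809, against 46.8% and 41.1% of all contigs tested. In 11365 contigs (47.7%) the difference was called but under 2-fold. The median log2 difference over the chosen contigs was -0.03, and 0.14 without scaling, so it has no direction that holds under both. The middle 50% of contigs lay between -0.67 and 0.49.

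Many contigs differed little between these stresses on the log2(RPKM + 1) scale, which understates differences of low contigs. The median absolute log2 difference was 0.57 over the chosen contigs and 0.63 over all contigs tested. The intervals below take the scaling as given and leave out its uncertainty. The 95% interval of the difference lay within 2-fold either way for 14384 contigs (60.3%) and within 1.5-fold for 7766 (32.6%). Of the 5718 contigs that were not called, 4314 had an interval within 1.5-fold, and for the others the data leave a wider range.

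**Figure D1:**
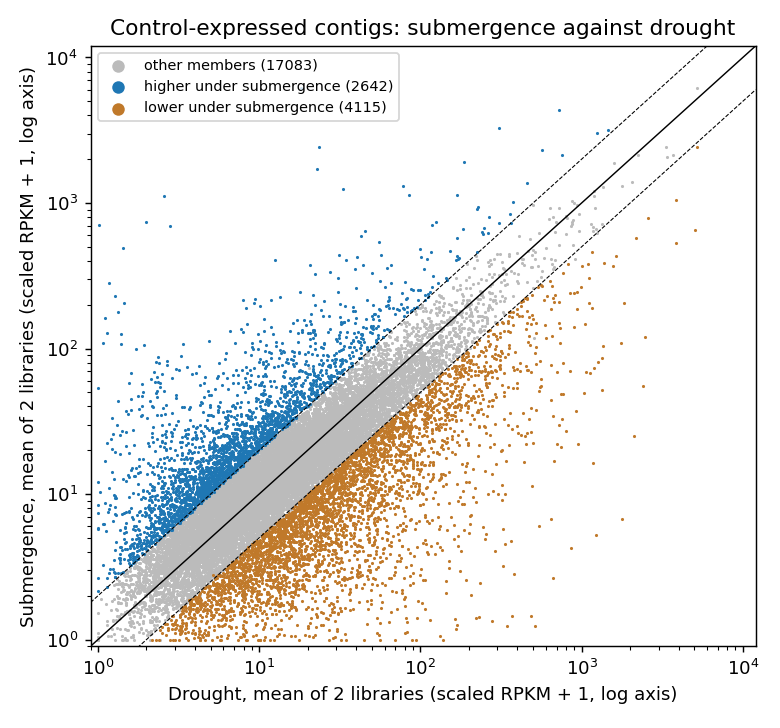
Mean scaled level under drought (x) and submergence (y) of the 23840 chosen contigs, as RPKM + 1 on log axes. Blue points are the 2642 contigs called at least 2-fold higher under submergence, brown points the 4115 called at least 2-fold lower, grey points the rest. The solid line marks equal levels and the dashed lines 2-fold. The brown cloud widens towards the right, where the definition of the calls and the floor of the scale leave more room below the line.

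The balance between the stresses turned with a contig's level in unstressed leaves, a value that neither stress library enters. Among the 173 contigs with a control mean of 500 RPKM or more, 98 (56.6%) were at least 2-fold lower under submergence than under drought and 11 (6.36%) higher. From 50 to 500 RPKM, 846 of 2327 contigs (36.4%) were lower and 182 (7.82%) higher. Between 5 and 50 RPKM, 2549 of 15552 (16.4%) were lower and 1527 (9.82%) higher.

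Contigs of low level leaned the other way. Of the 5788 with a control mean under 5 RPKM, 922 (15.9%) were higher under submergence and 622 (10.7%) lower. The median log2 difference ran from 0.20 in that class through -0.04 and -0.61 to -1.29 in the class of 500 RPKM or more. This order follows the control level, and the difference between classes was described and not tested. Since submergence lay farther from the control than drought, classes by control level are not neutral between the stresses. Without scaling, 92 contigs of the highest class were lower and 11 higher, and from 50 to 500 RPKM 735 were lower and 215 higher. Between 5 and 50 RPKM the excess of lower contigs then nearly vanished, with 2121 lower and 2007 higher, and under 5 RPKM 529 were lower and 1176 higher. Precision was poorer in the lowest class, where 35.2% of contigs were not called and the median standard error of the log2 difference was 0.14, against 0.04 in the highest class.

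**Figure D2:**
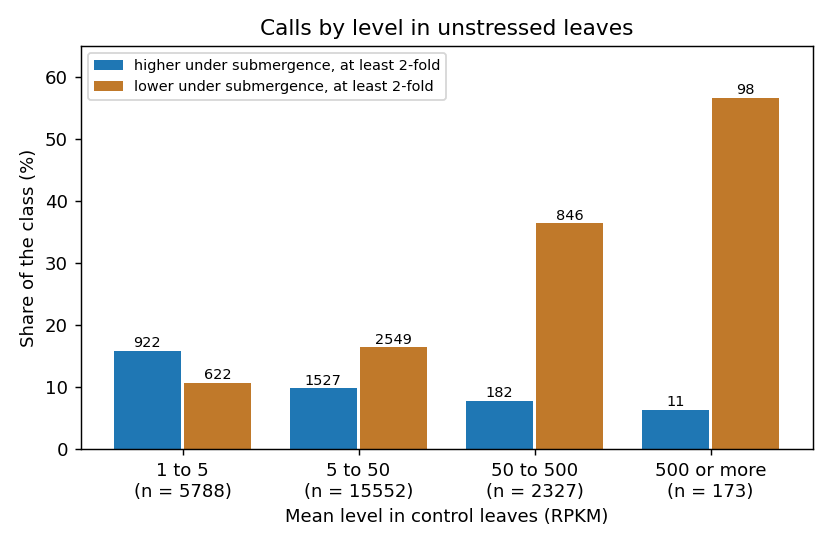
Share of contigs (y, percent of the class) called at least 2-fold higher (blue) or lower (brown) under submergence than under drought, by mean control level (x, RPKM). Numbers above the bars are contigs. The brown bars climb from 10.7% to 56.6% while the blue bars go from 15.9% to 6.36%.

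The most abundant transcripts of unstressed leaves made up less of the library under both stresses, and least under submergence. The 100 chosen contigs with the highest control mean held 25.0% ± 0.212 of control RPKM, 13.1% ± 0.283 under drought and 9.39% ± 0.106 under submergence (SD, n = 2 each). Of these 100, 51 were at least 2-fold lower under submergence than under drought and 8 were higher. Set against the control, which both comparisons share, 78 were at least 2-fold lower under submergence and 62 under drought. Among all contigs tested, 16.0% were lower under submergence than in the control and 8.03% under drought. These contigs were picked for a high control level, so part of any fall from the control follows from that choice. Submergence lay farther from the control than drought did, at 1.18 against 0.843. The choice may therefore bear on submergence against drought too, which was not tested.

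Single contigs of the top 20 followed quite different courses. They are given by their rank in the control, since they carry no gene names. The first had 6332.48 and 6318.76 RPKM in the control libraries, 5119.09 and 4892.12 under drought, and 6776.53 and 6778.22 under submergence. All 6 of these libraries held between 4892.12 and 6778.22 RPKM, and submergence exceeded drought by a log2 difference of 0.25 ± 0.05 (SE, limma, adjusted p = 0.00197).

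The contig of rank 15 separated the stresses most in the direction of submergence. Its values were 3063.91 and 2988.01 RPKM in the control, 292.92 and 298.0 under drought, and 3562.84 and 3637.55 under submergence. Submerged leaves held it near the unstressed level, and droughted leaves were far below. The log2 difference was 3.41 ± 0.03 (SE, limma, adjusted p = 3.61e-11). Heat gave 444.72 and 460.24 RPKM and salt 4220.74 and 4210.18, so heat lay with drought and salt with submergence.

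Rank 7 showed the converse. It had 4059.92 and 4109.42 RPKM in the control, 4933.12 and 4848.15 under drought, and 676.8 and 751.27 under submergence. Droughted leaves were slightly above the control libraries and submerged leaves well below both, with a log2 difference of -2.96 ± 0.06 (SE, limma, adjusted p = 5.6e-10). Rank 14 had nearly the same course, with a log2 difference of -2.87.

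Others were low under both stresses. Rank 5 had 4406.55 and 4633.34 RPKM in the control, 189.77 and 192.37 under drought, and 230.93 and 239.66 under submergence. The stresses differed there by a log2 of only 0.11 ± 0.04 (SE, limma, adjusted p = 0.04). Rank 20 went further under submergence, with 41.89 and 35.97 RPKM against 218.12 and 216.19 under drought and 2750.94 and 2761.79 in the control. Rank 8 was the only contig of the 20 that was not called. Its replicates were far apart, at 3288.72 and 2045.07 RPKM under submergence and 3625.03 and 2774.56 under drought, and the groups overlapped (limma, adjusted p = 0.103).

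**Figure D3:**
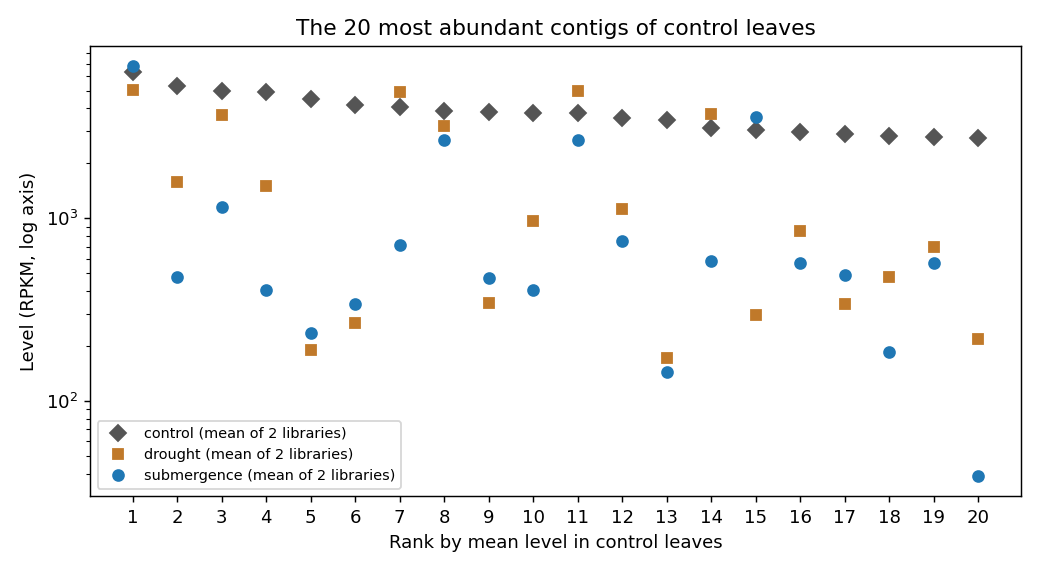
Mean RPKM of 2 libraries (y, log axis) in control (diamonds), drought (squares) and submergence (circles) for the 20 most abundant contigs of control leaves, ordered by control rank (x). Rank 15 is near the control level under submergence only, ranks 7 and 14 under drought only, and ranks 5, 6 and 13 are low under both.

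The leading transcripts of the stressed leaves were partly different contigs. Of the 100 chosen contigs with the highest level under submergence, 36 were also in the top 100 of the control and 46 in the top 100 of drought. Of the top 100 under drought, 49 were in the control's top 100. The submergence top 100 reached down to a contig of 1.51 RPKM in the control and the drought top 100 to one of 4.85 RPKM.

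The 2642 contigs that were higher under submergence had, over the 2 libraries of each group, a median level of 20.4 ± 0.0707 RPKM under submergence and 4.71 ± 0.0354 under drought (SD, n = 2 each). Their median was 7.54 ± 0.0636 in the control, 7.76 ± 0.099 under salt and 8.0 ± 0.0495 under heat. The control thus lay between the stresses, nearer to drought in RPKM. Together they made up 21.9% ± 0.0707 of the RPKM under submergence, 4.52% ± 0.0424 under drought and 7.36% ± 0.0354 in the control (SD, n = 2 each).

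The 4115 contigs that were lower under submergence had a median of 6.24 ± 0.0424 RPKM there and 25.6 ± 0.283 under drought (SD, n = 2 each). The control, at 17.5 ± 0.283 RPKM, was again in between, and salt and heat were close to it at 18.2 ± 0.354 and 17.1 ± 0.0707. These contigs held 10.4% ± 0.0707 of the RPKM under submergence, 40.2% ± 0.141 under drought and 37.5% ± 0.0707 in the control. In whole leaves, fewer cells of a type and less RNA per cell cannot be told apart. The levels under submergence and drought chose both lists and are a description.

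**Figure D4:**
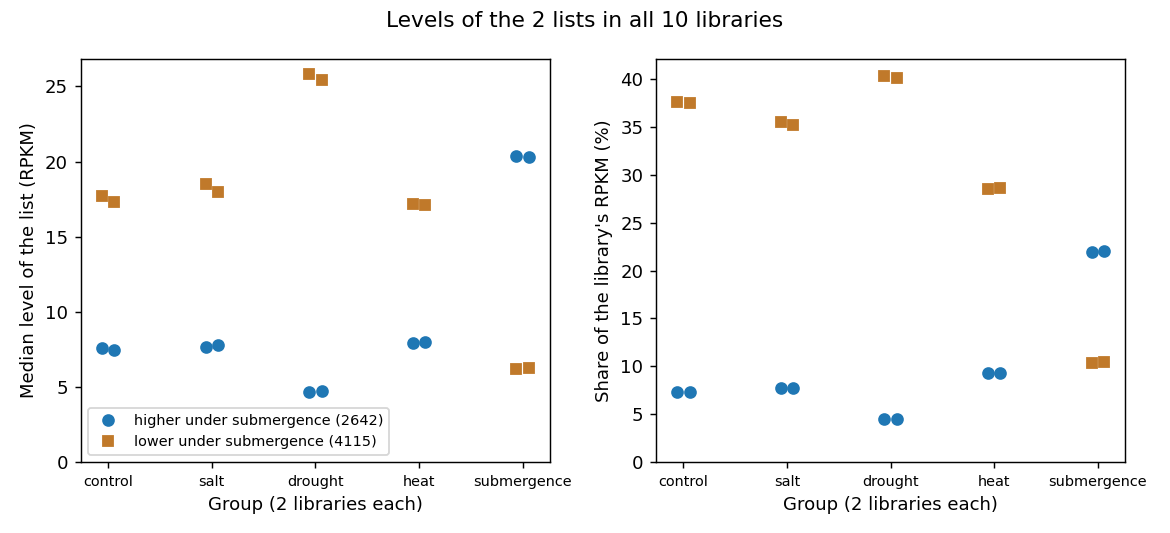
Median level (left, RPKM) and share of the library (right, percent of RPKM) of the contigs called at least 2-fold higher (circles, 2642) or lower (squares, 4115) under submergence than under drought, with 1 point per library and 2 libraries a group (x). The lists change places under submergence, where the share of the first was 21.9% and that of the second 10.4%.

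Each stress was then set against the control for the same lists. Both comparisons share the control libraries and, with the choice of the lists, the stress libraries, so the values are given side by side as a description. Among the 2642 contigs higher under submergence, the median log2 difference from the control was 0.91 for submergence and -0.67 for drought. Of them 1199 were at least 2-fold higher under submergence than in the control, and 884 at least 2-fold lower under drought. Among all contigs tested, 16.5% were higher under submergence and 8.03% lower under drought by that rule.

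For the 4115 contigs lower under submergence, the distance from the control was mostly on the side of submergence. The median log2 difference from the control was -1.54 for submergence and 0.24 for drought. Submergence lowered 2848 of them at least 2-fold from the control and drought raised 938, against 16.0% and 7.11% of all contigs tested.

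With 1 control library for submergence and the other for drought, the 2 comparisons with the control shared no library. The contigs were sorted by size of difference alone. The stress libraries had already chosen the lists, so these shares are a description. This sorting was not made over all chosen contigs. Of the lower list, 2279 (55.4%) were at least 2-fold below the control under submergence and within 2-fold of it under drought. Another 577 (14.0%) were above the control under drought and within 2-fold under submergence, and 291 (7.07%) were 2-fold apart from it in both directions. With the control libraries exchanged these counts were 2282, 593 and 290.

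The higher list was more even, and so were all chosen contigs in these directions by the limma rule with both control libraries. Of them 8.93% were higher under submergence and 9.02% lower under drought. In the directions of the lower list, 18.0% were lower under submergence and 6.90% higher under drought. Submergence alone was at least 2-fold above the control for 915 (34.6%), drought alone at least 2-fold below for 673 (25.5%), and 185 (7.00%) did both. The exchange of control libraries gave 919, 662 and 182. For 749 contigs (28.3%) neither stress was 2-fold from its control library, although the stresses were 2-fold apart.

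Across all 5 groups, submergence was the extreme group for most of the contigs in these lists, which were chosen by the level under submergence and drought. It had the highest scaled mean for 2141 (81.0%) of the higher list and the lowest for 3238 (78.7%) of the lower list. Over all chosen contigs these shares were 26.1% and 27.1%. Drought had the lowest mean for 1399 (53.0%) of the higher list, against 17.9% of all chosen contigs. Heat had it for 724 (27.4%), against 26.5% of all chosen contigs. Submergence was lowest for 0 of the higher list and highest for 0 of the lower list, which the choice of the lists fixes. The other groups share those places, so shares over all chosen contigs are not a like measure for them. In the lower list drought had the highest mean for 1818 (44.2%), the control for 1106 (26.9%) and heat for 719 (17.5%). Of all chosen contigs the shares were 19.0%, 17.8% and 26.7%.

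Heat and salt libraries did not enter the means from which the lists were chosen, only the shared scaling and estimate of spread, and heat against control shares no library with submergence against drought. Heat lowered 714 (27.0%) of the contigs higher under submergence than under drought and raised 387 (14.6%), at 2-fold with limma. Of all contigs tested, heat lowered 15.8% and raised 12.2%, and of the chosen contigs 17.8% and 11.8%. The excess of lowered contigs depended on the scaling and nearly vanished without it. Heat then lowered 672 and raised 655 of the 3409 contigs that were higher without scaling. These 714 and 387 contigs were 16.8% and 13.7% of the chosen contigs that heat lowered and raised.

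Among the contigs lower under submergence, heat lowered 1412 (34.3%) and raised 632 (15.4%). They made up 33.3% of the chosen contigs that heat lowered and 22.4% of those it raised. Of the 8-fold lists, heat lowered 127 of the 227 higher contigs and 251 of the 570 lower ones, and raised 33 and 132. Heat thus lowered contigs from both lists.

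Salt made few 2-fold differences. It raised 107 (2.60%) of the lower list and lowered 29 (0.705%), where 1.36% of all contigs tested rose and 0.32% fell, and of the chosen contigs 0.893% and 0.357%. The 107 contigs were 50.2% of the 213 chosen contigs that salt raised. Of the higher list, salt raised 28 (1.06%) and lowered 32 (1.21%). With a pseudocount of 0.1 RPKM these became 47 and 59. The order turned in other settings, with 35 raised and 24 lowered without scaling, and 22 and 12 with 1 contig a subcomponent. A limma treat test against 2-fold, which is stricter, gave 14 and 1 in the higher list and 35 and 5 in the lower list.

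Near-complete presence or absence was rare among control-expressed contigs. In 60 of them (0.252%) the submergence mean reached 5 RPKM or more while the drought mean stayed below 0.5 RPKM, against 4.58% of all contigs tested. The opposite pattern was seen in 109 (0.457%), against 0.465%. The difference between 0.252% and 4.58% follows in part from the choice of contigs, since 1172 contigs with the first pattern were below 1 RPKM in at least 1 control library.

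The 60 contigs present under submergence had a median of 12.5 RPKM there, 0.258 under drought, 2.73 in the control, 2.33 under salt and 0.493 under heat. Of them 30 were also under 0.5 RPKM under heat and 2 under salt. Both drought libraries listed 6 of the 60 at 0. The 109 contigs present under drought had a median of 15.2 RPKM there, 0.205 under submergence, 10.9 in the control, 11.9 under salt and 4.21 under heat. Of these, 96 had at least 5 RPKM under salt and 51 under heat, while 19 were listed at 0 in both submergence libraries.

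Of the chosen contigs that were called, 2 are named in each direction by the size of the fitted log2 difference, each from another subcomponent of the assembly. A subcomponent is a set of contigs that the assembler derived from one graph, such as splice forms, alleles or close copies of a gene. Reads may be split between contigs of a subcomponent, so their single values are uncertain.

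The contig comp55720_c3_seq5 had 752.43 and 793.67 RPKM in the submergence libraries, and was listed at 0 and at 0.02 RPKM in the drought libraries. The control had 1.71 and 1.31 RPKM, salt 3.16 and 1.46, and heat 0.2 and 0. It was abundant in the submergence libraries alone of the 10. The fitted log2 difference was 9.45 ± 0.23 (SE, limma, adjusted p = 2.07e-09), a value that depends on the pseudocount, since drought was at or near 0. With 0.1 RPKM added in place of 1 it was 12.65. Of 14 further contigs in its subcomponent, 5 were expressed in the control, and 4 of these were at least 2-fold higher under submergence.

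The second, comp51124_c0_seq1, had 1199.48 and 1242.51 RPKM under submergence and 1.35 and 1.7 under drought. Its control values were 6.74 and 7.49 RPKM, its salt values 53.11 and 56.87, and its heat values 0.68 and 0.2. Submergence was highest, salt lay above the control, and drought and heat below it. The fitted log2 difference was 8.76 ± 0.14 (SE, limma, adjusted p = 2.62e-10). With 0.1 RPKM added in place of 1 it was 9.38. Against the control, with 1 RPKM added, the log2 difference was 6.98 for submergence and -1.77 for drought. No further contig shared its subcomponent.

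In the other direction, comp48392_c0_seq2 had 0.38 and 0.13 RPKM under submergence and 507.4 and 482.9 under drought. The control had 3.99 and 4.02 RPKM, salt 19.44 and 18.21, and heat 105.8 and 104.09. The groups did not overlap and stood in the order submergence, control, salt, heat, drought. The log2 difference was -8.71 ± 0.08 (SE, limma, adjusted p = 3.64e-11). Relative to the control it was 6.58 under drought and -2.14 under submergence. The other contig of its subcomponent was also lower under submergence than under drought, by a log2 difference of -7.99.

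Last, comp55827_c2_seq8 had 0.58 and 0.43 RPKM under submergence and 471.48 and 454.94 under drought. Its level was 49.78 and 54.31 RPKM in the control, 189.74 and 193.92 under salt, and 135.01 and 137.17 under heat. Drought, salt and heat were all above the control and submergence was far below. The log2 difference was -8.37 ± 0.06 (SE, limma, adjusted p = 8.8e-12), and -9.76 with 0.1 RPKM added in place of 1. All 6 further contigs of its subcomponent were at least 2-fold lower under submergence, with log2 differences from -6.47 to -2.85.

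**Figure D5:**
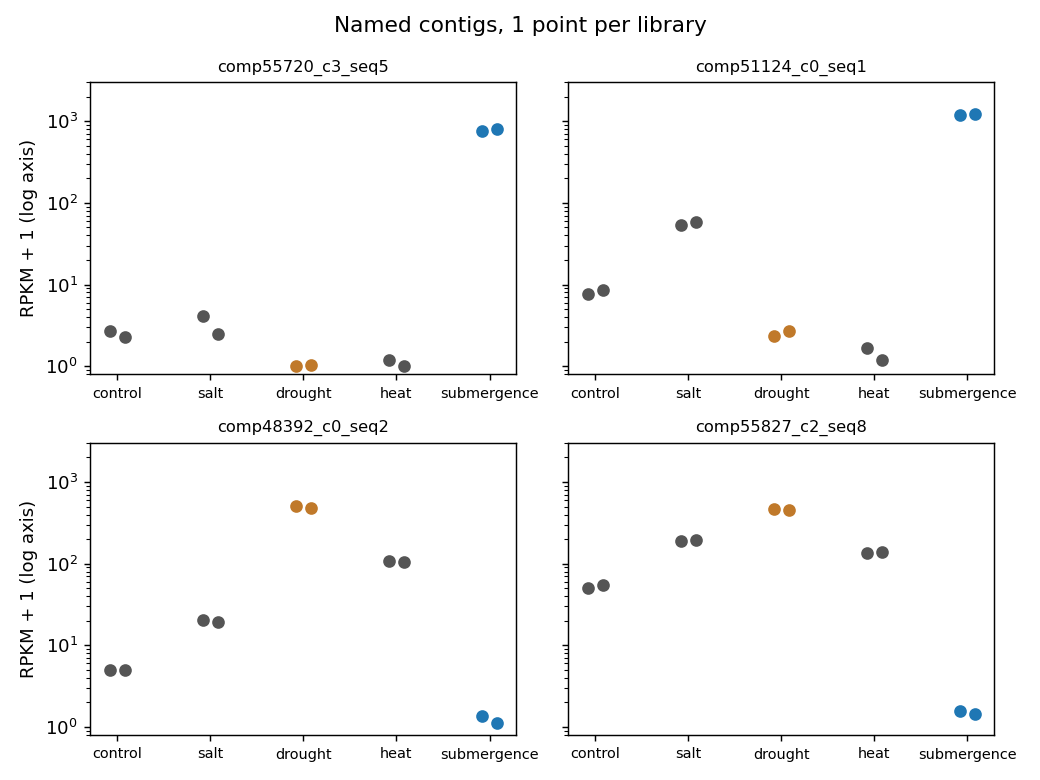
RPKM + 1 (y, log axis) of the 4 named contigs in each of the 10 libraries, 1 point per library, by group (x). Submergence points are blue, drought points brown, the rest grey. The upper contigs are at 752.43 to 1242.51 RPKM under submergence, the lower ones at 454.94 to 507.4 RPKM under drought.

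Contigs of one subcomponent mostly differed in one direction. The chosen contigs came from 15951 subcomponents, of which 4546 held at least 2 of them. In 1108 of these, 2 or more contigs differed at least 2-fold between submergence and drought, and in 1019 of the 1108 they all did so in one direction. In 89 (8.03%) at least 1 contig was higher and at least 1 lower. Of the 4546, all chosen contigs were at least 2-fold higher under submergence in 257 and at least 2-fold lower in 445.

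The range of log2 differences within a subcomponent had a median of 0.42, and it reached 3 or more in 154. Of the higher list, 59.1% shared a subcomponent with another chosen contig, against 50.5% of the lower list and 52.2% of all chosen contigs. Contigs of a subcomponent are not independent, so these counts are a description. With 1 contig a subcomponent, that of the highest control mean, 1564 were higher at 2-fold and 2881 lower.

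Contigs on both edges of the threshold of 1 RPKM had similar values. The 148 contigs whose lower control library had 1.0 to 1.09 RPKM had a median log2 difference of 0.34, and the 144 tested contigs at 0.9 to 0.99 RPKM one of 0.39.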

How the data were processed

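The authors deposited 1 table of RPKM values with 2 decimals, 1 column per library, per the file headers. Although the file is named for read counts, its values are not whole, so log values and a linear model took the place of a count model. Tools listed, with no role, per the submitters' processing notes are HTSeq 0.6.1, DESeq 1.18.0, TopHat2 2.0.12 and Bowtie2 2.2.3, and the assembly is not given in the sources used here.

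Libraries were scaled by an unweighted trimmed mean of log ratios, trimming 30% of ratios and 5% of levels at each end. The test took the 26884 contigs that reached 1 RPKM in 2 or more of the 10 libraries, which include every chosen contig. Scaled values were taken to log2(RPKM + 1) and modelled in R 4.3.3 by limma 3.58.1 with group as the only term, all 10 libraries and a variance trend. P-values were Benjamini-Hochberg adjusted over all contigs tested and called under 0.05. Summaries used Python 3.11.15, numpy 2.4.6, pandas 2.3.3, scipy 1.17.1 and matplotlib 3.10.9. The fit was tested on simulated data.

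Relative depth is the most frequent ratio of low values to control replicate 1. The contigs, lists and rules were chosen with earlier results of these data known. Named contigs are the chosen contigs called with the largest log2 difference, 2 a direction, each from another subcomponent. Alternatives covered scaling, pseudocount, filter, libraries, block, threshold, membership and each left-out library.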

Additional observations from a re-analysis of the deposited data

How the results depend on the processing

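All 4 named contigs kept their direction and their call under each alternative that could be applied to them. For the counts of higher and lower contigs without a size limit and at 2-fold and 8-fold, the alternatives moved most by less than 1.5 times. The balance of calls without a size limit nevertheless turned, from 8588 higher and 9534 lower to 10581 and 7964 without scaling and to 9154 and 9070 with upper-quartile scaling. With 1 contig a subcomponent, 5715 contigs were called higher, 1564 were higher at 2-fold and 107 at 8-fold, and with membership at 5 RPKM the latter 2 counts were 1655 and 135, both with fewer contigs by construction. A limma treat test against 2-fold, which is stricter by construction, called 1702 higher and 3138 lower. A pseudocount of 0.1 RPKM gave 347 higher and 891 lower at 8-fold. Leaving out 1 library of submergence, drought or control in turn gave 2637 to 2747 higher and 4100 to 4218 lower at 2-fold.

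The median log2 difference over the chosen contigs, -0.0275, depended on the scaling. It was 0.1396 without scaling, -0.0182 with median-ratio and 0.0178 with upper-quartile scaling, and 0.0102 with factors from the chosen contigs alone. It was -0.0304 with a pseudocount of 0.1 RPKM, -0.0659 for means of at least 5 RPKM, and -0.0309 with the 4 stress libraries alone. Membership at 0.5 RPKM gave -0.0154, at 5 RPKM -0.1138, and 1 contig a subcomponent -0.0448. Leaving out 1 library gave -0.0331 to -0.0270. The cause was not tested beyond these settings.

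Same-numbered libraries of different groups had deviations correlated at -0.0434 to 0.141, and at 0.00687 for drought and submergence. No strong pairing by number was seen, but weak correlations cannot exclude one. With a replicate block, 2644 contigs were higher and 4115 lower at 2-fold. Read depth is unknown, so the precision of low values rests on the replicates alone.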
